A study of Mus musculus with 6 samples.

Results

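The 58 genes described here are box C/D small nucleolar RNA (snoRNA) genes measured in mouse embryonic heads. They are the rows of the gene count table whose symbol starts with *Snord* and that had at least 10 counts in at least 3 of the 6 libraries. The table holds 74 *Snord* rows among 24421 gene symbols, so 16 *Snord* rows stayed out. The members were chosen by their read counts, and their levels are therefore a description. The difference between genotypes was not part of the rule, although the genes were taken up with earlier results of these data known.

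RNA was measured in heads at E9.0 on a mixed background of CD1 and C57BL/6J (C57BL/6 in the labels). Both groups had 3 libraries, each from a pool of 2 heads of the same genotype. The WT group carried 2 intact *Snrpb* copies (+/+). The Het group is Snrpb ncc+/-: 1 *Snrpb* copy is deleted by Wnt1-Cre2, a transgene active in the neural tube and in neural crest, and both copies stay intact elsewhere in the head. *Snrpb* encodes SmB and SmB', core proteins of the spliceosomal snRNPs. The paper counts all embryos of its crosses without this deletion as *Snrpb* WT. It does not say whether the sequenced WT heads carried the Wnt1-Cre2 transgene or an undeleted *Snrpb* copy with loxP sites. No treatment was given to either group. Heads of different litters were pooled within a genotype and somite stage, so *P*-values measure the spread between pools.

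Box C/D snoRNAs are short, stable nucleolar RNAs that guide 2′-O-methylation of ribosomal RNA, and a few of them are needed to cut the ribosomal precursor. Their name comes from 2 conserved motifs near the ends of the RNA, the C box and the D box, which bind Snu13 (listed as *Nhp2l1*), Nop56, Nop58 and the methyltransferase fibrillarin (*Fbl*). In vertebrates most of them have no promoter of their own. They lie in introns of host genes, many of which encode ribosomal proteins, translation factors or the snoRNP proteins, and are trimmed from the excised intron by exonucleases. Other hosts are non-coding small nucleolar RNA host genes (Snhg genes, such as *Gas5* and *Snhg1*), whose introns carry the snoRNAs and whose spliced RNA is not translated into a known protein.

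The sequences below, from Gencode M21 on the mm10 build, are those of the genes on which the results turn: the 4 genes with the smallest *P*-values (*Snord88c*, *Snord104*, *Snord22* and *Snord1b*), 3 further genes among the 8 most abundant per length (*Snord96a*, *Snord49a* and *Snord15b*), both pairs of near-identical copies, and the 1 gene whose Het libraries all lay below WT. Capitals mark a C box core (TGATG within the first 20 bases) and a D box (CTGA within the last 20 bases), both read on the RNA strand only. *Snord104* (chr11:106500993-106501062, plus strand) lies in no host gene annotated on its own strand in Gencode M21. A host missing from that annotation would not be seen. *Snord22* (chr19:8725866-8725991, plus strand) lies in *Snhg1*, *Snord49a* (chr11:62603450-62603521, plus strand) in *2410006H16Rik*, *Snord15b* (chr7:99479563-99479707, minus strand) in *Rps3*, and *Snord96a* (chr11:48802032-48802112, plus strand) in *Rack1*. *Snord88c* (chr7:44249852-44249941, plus strand) and *Snord88a* (chr7:44250135-44250224, plus strand) share the host *2410002F23Rik*. *Snord1b* (chr11:116674148-116674222, plus strand) and *Snord1c* (chr11:116672506-116672581, plus strand) share the host *1810032O08Rik*. *Snord4a* (chr11:78181686-78181756, minus strand) lies in *Rpl23a*.
Snord104: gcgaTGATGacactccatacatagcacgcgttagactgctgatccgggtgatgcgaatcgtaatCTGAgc
Snord22: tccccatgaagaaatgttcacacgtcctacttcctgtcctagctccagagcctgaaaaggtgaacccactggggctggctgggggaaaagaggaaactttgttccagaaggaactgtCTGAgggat
Snord49a: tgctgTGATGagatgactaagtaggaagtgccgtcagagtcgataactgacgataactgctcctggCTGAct
Snord15b: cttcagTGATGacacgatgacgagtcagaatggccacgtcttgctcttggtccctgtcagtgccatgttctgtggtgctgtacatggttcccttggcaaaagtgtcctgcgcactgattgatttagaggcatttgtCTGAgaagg
Snord96a: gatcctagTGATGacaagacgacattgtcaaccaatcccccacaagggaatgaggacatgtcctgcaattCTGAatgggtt
Snord88c: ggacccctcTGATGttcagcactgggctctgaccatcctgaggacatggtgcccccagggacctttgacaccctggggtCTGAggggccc
Snord88a: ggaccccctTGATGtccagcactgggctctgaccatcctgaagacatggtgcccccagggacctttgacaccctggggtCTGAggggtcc
Snord1b: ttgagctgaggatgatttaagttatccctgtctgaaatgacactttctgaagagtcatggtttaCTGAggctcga
Snord1c: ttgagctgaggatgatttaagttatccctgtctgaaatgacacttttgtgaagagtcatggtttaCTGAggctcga
Snord4a: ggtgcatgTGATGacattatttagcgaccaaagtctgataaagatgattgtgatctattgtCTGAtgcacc

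The labelled family and the motifs went together. The C box core was found in 50 of the 58 members (86.2%), the D box in 56 (96.6%) and both in 48 (82.8%). Among the 38 sequences of the other large family, the box H/ACA snoRNA genes (*Snora*), the C box core was found in 0, the D box in 5 (13.2%) and both in 0. *Snord1b*, *Snord1c* and *Snord22* are among the members with a D box and without these exact C box letters. Members were 64 to 238 nt long (median 77.5 nt), and 5 were longer than 110 nt. By coordinates, 57 of 58 lay in a host gene on the same strand, and these 57 fell into 41 hosts. In 35 members every overlapping transcript of the host had an intron at that place, and in 22 some transcript had an exon there. The distance from the 3′ end of the snoRNA to the downstream exon had a median of 89 nt and quartiles of 69 and 197 nt, and 37 of 57 lay within 110 nt of that exon.

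Levels are given in CPM, the read count of a gene scaled to the total of its library after TMM scaling, and are divided by the annotated length where genes are compared. Per kb of length, the members spanned 2.62 to 138 CPM per kb (median 19.7). The 8 highest were *Snord96a* (138), *Snord104* (124), *Snord2* (81.7), *Snord49a* (81.5), *Snord52* (77.3), *Snord22* (62.3), *Snord17* (57.99) and *Snord15b* (57.3 CPM per kb), and they held 45.7% of the summed CPM of the members. *Snord96a* guides methylation of the short rRNA of the large ribosomal subunit, *Snord2*, *Snord49a* and *Snord15b* guide methylation of the large-subunit rRNA, and *Snord22* is needed for maturation of the small-subunit rRNA. In 6 of the 52 members for which both lengths were at hand, the level per kb was above that of the exons of the host gene, with a median of 17.3% of the host and a range from 0.697% to 328%. Reads from an unspliced or retained intron fall on the same bases as the snoRNA and cannot be told apart from reads of the mature RNA in these counts.

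The first comparison asked whether the level of box C/D snoRNA genes differed between Het and WT heads. Most members were higher in the Het libraries by a modest amount, and no single member passed the test over all genes. The log2 fold change was positive in 53 of 58 members (91.4%), against 50.2% of the 15584 genes tested. Its median was 0.31, with quartiles of 0.15 and 0.45 and a range from -0.26 to 1.03, whereas the median over all tested genes was 0.00041. Summed over the members, the level was 125, 135 and 124 CPM in WT and 165, 171 and 151 CPM in Het libraries (128 ± 6.27 against 162 ± 10.2 CPM, SD, n = 3 each). The lowest Het library thus lay above the highest WT library, and the ratio of the means was 1.27. In single libraries, the median log2 level of the members relative to the WT mean was 0.012, 0.093 and -0.074 in WT and 0.27, 0.42 and 0.21 in Het. The members come from the same 6 libraries and are not independent of each other.

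**Figure D1:**
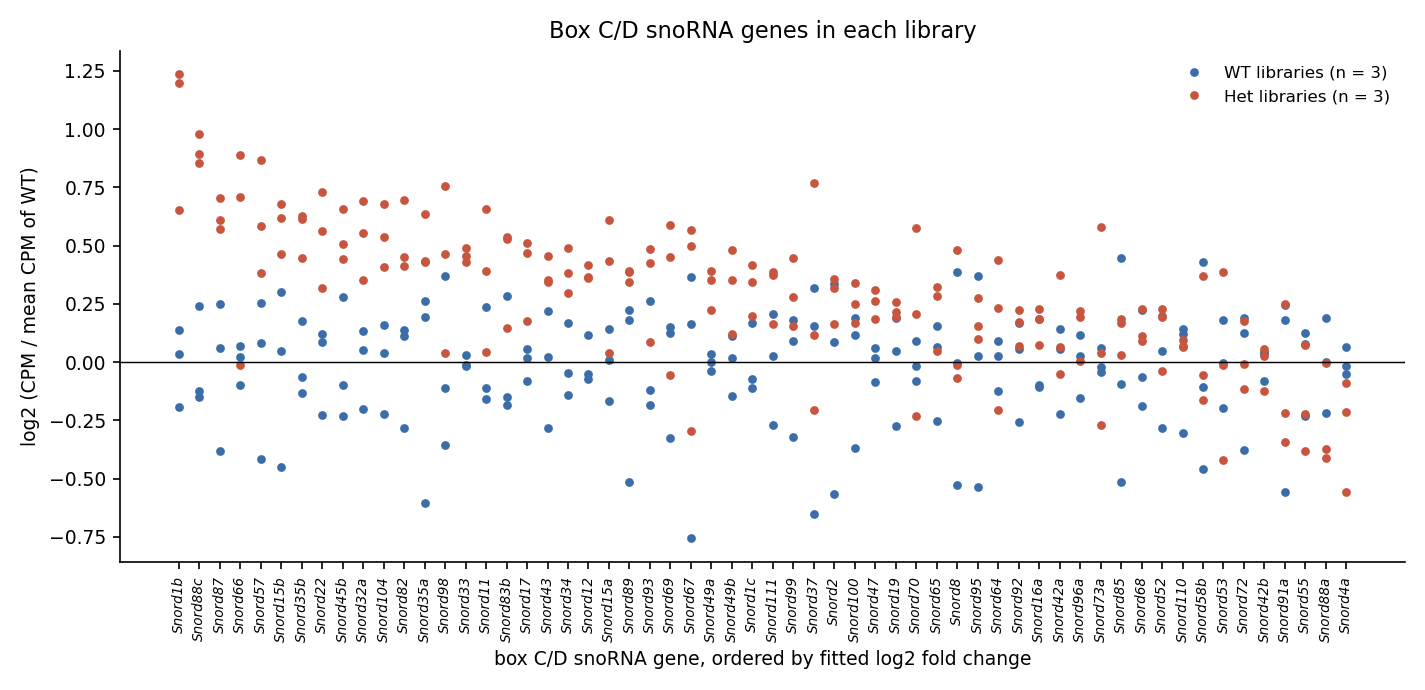
Level of each of the 58 box C/D snoRNA genes in each library, as log2 of CPM over the mean CPM of WT, with 1 point per library (blue WT, red Het) and the genes in order of the fitted log2 fold change. Red points lie above the WT mean for 49, 54 and 46 of the 58 genes in Het replicates 1, 2 and 3. Blue points do so for 30, 45 and 23 genes in WT replicates 1, 2 and 3, so WT replicate 2 is close to Het replicate 3. Blue and red points do not overlap in 24 of the 58 genes, 23 of them with red above blue.

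With edgeR's quasi-likelihood test and Benjamini-Hochberg adjustment over all 15584 genes, 0 of 58 members passed an adjusted *P* of 0.05, where 0.00642% of all genes did (1 gene). The smallest adjusted *P* was 0.309, for *Snord88c* and *Snord104*. At an unadjusted *P* under 0.05, edgeR gave 18 members higher in Het (against 4.34% of all genes) and 0 lower (4.09% of all genes). DESeq2 gave 14 members at that unadjusted level, a count with no DESeq2 share over all genes beside it and a description only. It passed 2 of the 35 members to which it assigned an adjusted *P*, *Snord104* (adjusted *P* = 0.0197) and *Snord22* (adjusted *P* = 0.0487). Both were higher in Het, where DESeq2 passed 0.434% of all genes as higher. Every Het library lay above every WT library in 23 members (39.7%), against 8.32% of all tested genes. The opposite held in 1 member (6.92% of all tested genes). The standard error of a member's log2 fold change ranged from 0.098 to 0.35 (median 0.19), so differences of the median size were within about 2 standard errors for a typical member.

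**Figure D2:**
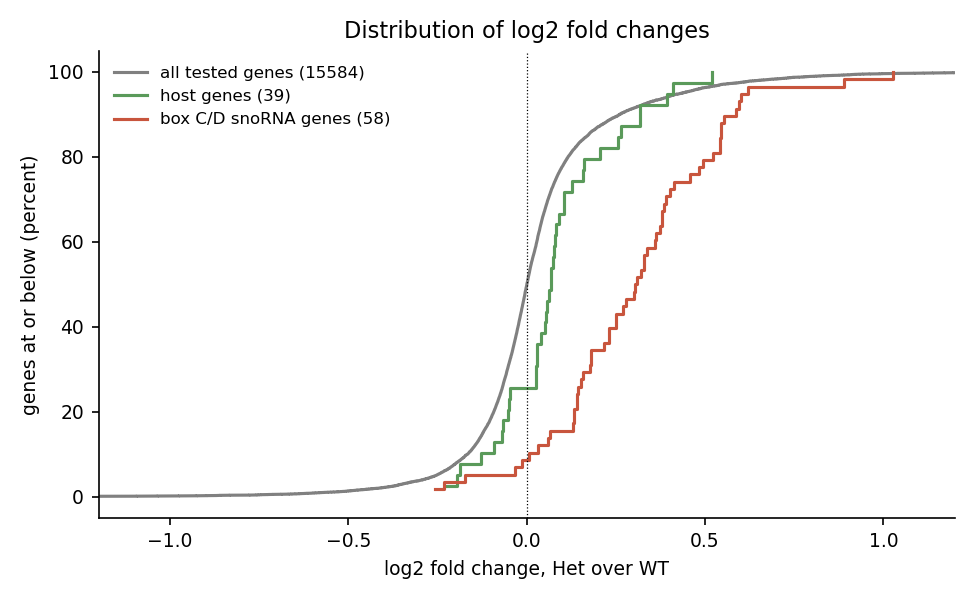
Cumulative distribution of log2 fold changes (Het over WT, x axis) for all 15584 tested genes (grey), the 39 host genes (green) and the 58 box C/D snoRNA genes (red), with the percentage of genes at or below each value on the y axis. The red curve crosses 50% at 0.31, the green curve at 0.07 and the grey curve near 0.

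Of the members without overlap between groups, *Snord1b* had the largest difference. *Snord1b*, a guide for the large-subunit rRNA, was at 0.412, 0.443 and 0.351 CPM in WT and 0.947, 0.921 and 0.632 CPM in Het libraries. Its log2 fold change was 1.03 ± 0.26 (SE), with an edgeR adjusted *P* of 0.42. These are 13 to 70 counts per library, and *Snord1c* differs from it by few bases (97.4% identity). *Snord1c* was at 0.604, 0.732 and 0.622 CPM in WT and 0.829, 0.750 and 0.872 CPM in Het libraries, a log2 fold change of 0.31 ± 0.21. The reads of such copies can be split between them or lost in mapping, so each value alone is uncertain. The sum of both copies was 1.05 ± 0.106 CPM in WT and 1.65 ± 0.137 CPM in Het (SD, n = 3 each), a log2 ratio of 0.65.

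The same holds for *Snord88c* and *Snord88a*, which share 94.4% of their bases. *Snord88c* was at 0.714, 0.920 and 0.703 CPM in WT and 1.44, 1.41 and 1.53 CPM in Het libraries, with no overlap and a log2 fold change of 0.89 ± 0.19 (edgeR adjusted *P* = 0.309). *Snord88a* was at 0.467, 0.409 and 0.351 CPM in WT and 0.308, 0.408 and 0.316 CPM in Het libraries. Its groups overlapped and its log2 fold change was -0.23 ± 0.27. Summed, the copies were at 1.19 ± 0.137 CPM in WT and 1.81 ± 0.0496 CPM in Het (SD, n = 3 each), a log2 ratio of 0.60.

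Several of the most abundant genes per length were next examined. *Snord104* was at 6.04, 7.87 and 7.24 CPM in WT and 10.2, 11.3 and 9.36 CPM in Het libraries. Its log2 fold change was 0.54 ± 0.12 (SE), with an edgeR adjusted *P* of 0.309 and a DESeq2 adjusted *P* of 0.0197. *Snord22* was at 5.44, 6.76 and 6.92 CPM in WT and 9.42, 10.6 and 7.94 CPM in Het libraries, a log2 fold change of 0.55 ± 0.14 (edgeR adjusted *P* = 0.42). Both genes had all Het libraries above all WT libraries. *Snord15b* was at 4.86, 6.86 and 8.19 CPM in WT and 10.2, 10.6 and 9.16 CPM in Het libraries, a log2 fold change of 0.59 ± 0.17. *Snord17*, an unusually long box C/D snoRNA in the sorting nexin gene *Snx5*, was at 12.4, 12.1 and 11.3 CPM in WT and 17.0, 16.5 and 13.5 CPM in Het libraries, a log2 fold change of 0.39 ± 0.098. *Snord49a* was at 5.33, 5.07 and 5.22 CPM in WT and 6.09, 6.66 and 6.83 CPM in Het libraries, a log2 fold change of 0.33 ± 0.098. None of these 3 had overlapping groups, and their edgeR adjusted *P*-values lay between 0.42 and 0.437.

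The remaining genes among the 8 most abundant did not separate by genotype. *Snord96a* was at 11.5, 10.8 and 9.57 CPM in WT and 12.2, 12.4 and 10.7 CPM in Het libraries, a log2 fold change of 0.14 ± 0.098. *Snord2* was at 3.43, 6.42 and 5.41 CPM in WT and 6.51, 6.34 and 5.70 CPM in Het libraries, a log2 fold change of 0.27 ± 0.20. *Snord52* was at 5.58, 5.02 and 4.00 CPM in WT and 5.71, 4.74 and 5.57 CPM in Het libraries, a log2 fold change of 0.13 ± 0.14. In each of the 3 genes at least 1 Het library lay below the highest WT library.

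Among the less abundant members without overlap, *Snord87*, a guide for the large-subunit rRNA in *Snhg6*, was at 0.714, 0.971 and 1.11 CPM in WT and 1.52, 1.42 and 1.38 CPM in Het libraries (log2 fold change 0.62 ± 0.20). *Snord57*, a guide for the small-subunit rRNA, lies in the gene for the box C/D protein Nop56. It was at 0.632, 1.00 and 0.892 CPM in WT and 1.54, 1.26 and 1.098 CPM in Het libraries (log2 fold change 0.59 ± 0.23). *Snord45b*, in the geranylgeranyl transferase subunit gene *Rabggtb*, was at 1.65, 1.81 and 2.35 CPM in WT and 2.75, 3.05 and 2.63 CPM in Het libraries (log2 fold change 0.54 ± 0.17). *Snord35b* was at 0.412, 0.511 and 0.432 CPM in WT and 0.616, 0.697 and 0.692 CPM in Het libraries (log2 fold change 0.55 ± 0.22). These 4 genes had edgeR adjusted *P*-values from 0.437 to 0.547. *Snord35b* overlaps *Gm45552* on the other strand, and whether the counting used strand is not given in the sources used here.

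Against the direction of the family, 5 members had a negative log2 fold change. *Snord4a* was at 1.48, 1.45 and 1.57 CPM in WT and 1.02, 1.41 and 1.29 CPM in Het libraries, the 1 member with every Het library below every WT library. Its log2 fold change was -0.26 ± 0.18 (edgeR adjusted *P* = 0.723). It overlaps *Tlcd1* on the opposite strand, as does *Snord42a* of the same host. The other 4 were *Snord88a* (-0.23), *Snord55* (-0.17), *Snord91a* (-0.03) and *Snord42b* (-0.01), and in each of them the groups overlapped.

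*Rpl13a*, which encodes a protein of the large ribosomal subunit, held the largest cluster of members. Its introns hold *Snord32a*, *Snord33*, *Snord34* and *Snord35a*, which are guides for rRNA and are also known for their role in the response of cells to lipid overload. All 4 had every Het library above every WT library. *Snord32a* was at 1.76, 2.09 and 2.22 CPM in WT and 2.58, 2.97 and 3.26 CPM in Het libraries, a log2 fold change of 0.54 ± 0.15. *Snord33* was at 2.25, 2.18 and 2.19 CPM in WT and 3.10, 2.97 and 3.02 CPM in Het libraries, a log2 fold change of 0.46 ± 0.12. *Snord33* also overlaps *Mir5121* on the same strand. *Snord34* was at 1.73, 2.01 and 1.62 CPM in WT and 2.51, 2.20 and 2.33 CPM in Het libraries, a log2 fold change of 0.38 ± 0.15. *Snord35a* was at 1.43, 1.36 and 0.784 CPM in WT and 1.61, 1.60 and 1.85 CPM in Het libraries, a log2 fold change of 0.49 ± 0.23. The host itself had a log2 fold change of 0.02 ± 0.058, with overlapping groups (1382 ± 102 against 1407 ± 67.4 CPM, SD, n = 3 each). The 4 edgeR adjusted *P*-values lay between 0.424 and 0.603.

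The second comparison set the snoRNA genes beside their hosts, since a snoRNA and its host start from 1 transcript. The 39 hosts in the count table had a median log2 fold change of 0.07, with 29 of 39 above 0 (74.4%). In 42 of 55 members with a host in the table, the snoRNA gene had the larger log2 fold change, and the median of the difference (snoRNA minus host) was 0.22. Taken per library as the ratio of snoRNA to host, 17 of these 55 had every Het library above every WT library and 2 had every Het library below. Such ratios were not computed for other genes, so these counts have no share over all genes beside them and are a description only. Across the 55 pairs, Pearson's r between both fold changes was -0.018 and Spearman's rho -0.19, as a description over genes that share 6 libraries and, in 12 hosts, a host. No host passed the edgeR test. At an unadjusted *P* under 0.05 edgeR gave 11 of 39 hosts higher, against 4.34% of all genes, and 3 lower, against 4.09%. DESeq2 passed 5 of 39 hosts in either direction, where it passed 0.651% of all genes.

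**Figure D3:**
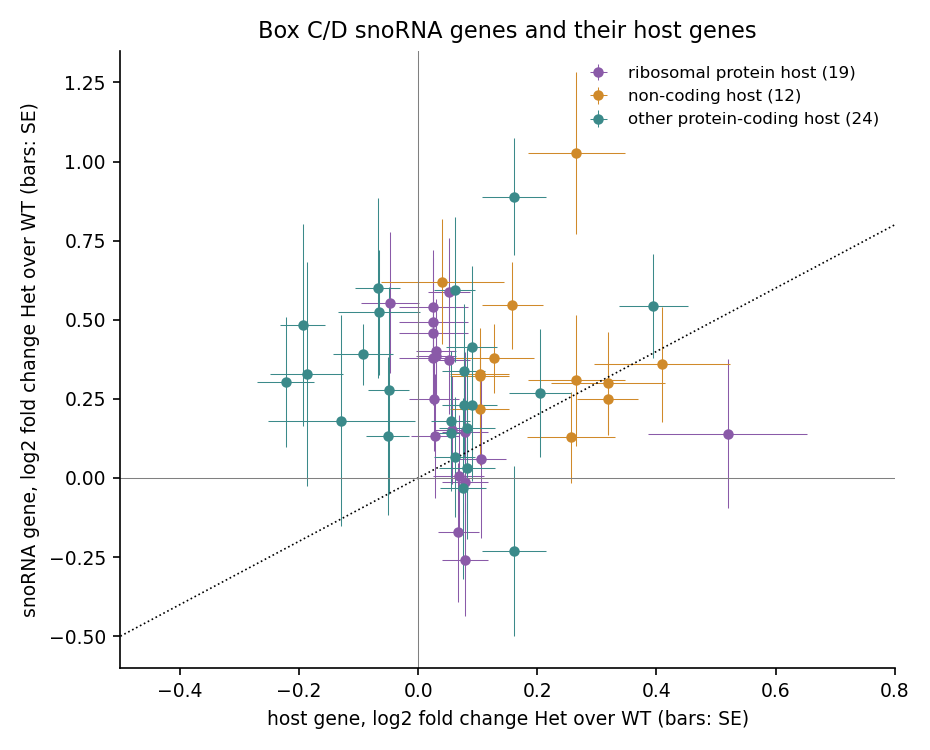
Log2 fold change of each box C/D snoRNA gene (y axis) against that of its host gene (x axis), both Het over WT with standard errors as bars, for 55 pairs coloured by the kind of host; the dotted line marks equal values. Points lie above the line for 42 pairs, and most hosts of ribosomal proteins sit close to 0 on the x axis while their snoRNA genes spread from -0.26 to 0.59.

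Members were next grouped by the kind of host. The 13 members in non-coding hosts were all higher in Het (median log2 fold change 0.33). Of these, 9 (69.2%) had every Het library above every WT library, against 8.32% of all tested genes. The 9 hosts of this kind in the table were also all higher (median 0.26), and 8 of them (88.9%) had no overlap. At an unadjusted *P* under 0.05 edgeR gave 6 of these hosts higher (66.7%), against 4.34% of all genes. *Gas5*, host of *Snord47*, was at 285, 290 and 266 CPM in WT and 343, 370 and 334 CPM in Het libraries, a log2 fold change of 0.32 ± 0.051 (edgeR adjusted *P* = 0.206). *Snord47* itself had 0.25 ± 0.11. *Snhg1*, host of *Snord22*, was at 105, 112 and 101 CPM in WT and 119, 122 and 113 CPM in Het libraries, a log2 fold change of 0.16 ± 0.051. In 8 of 12 pairs with a non-coding host the snoRNA gene had the larger value.

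The 19 members in ribosomal protein hosts had a median log2 fold change of 0.25, with 16 above 0. In 7 of them (36.8%) every Het library lay above every WT library, against 8.32% of all tested genes. The 12 ribosomal protein hosts had a median of 0.05. *Rps3a1*, host of *Snord73a*, stood apart with a log2 fold change of 0.52 ± 0.13, while *Snord73a* had 0.14 ± 0.23. The 25 members in other protein-coding hosts had a median of 0.27, with 23 above 0 and 6 without overlap in the direction of Het (24.0%). Their 18 hosts had a median of 0.0024, with 9 above 0. *Rabggtb* was at 98.0, 99.1 and 89.5 CPM in WT and 134, 123 and 119 CPM in Het libraries, a log2 fold change of 0.39 ± 0.058 (edgeR adjusted *P* = 0.182), beside 0.54 for its *Snord45b*. *Sf3b3*, a splicing factor gene, had a log2 fold change of -0.22 ± 0.047, while its *Snord111* had 0.30 ± 0.20. *Ccar1* had -0.19 ± 0.037 beside 0.48 ± 0.32 for *Snord98*. Of the other hosts of genes named above, *Eif4a2* (host of *Snord2*) had a log2 fold change of 0.20 ± 0.052 and *1110038B12Rik* (host of *Snord52*) 0.26 ± 0.074, *1810032O08Rik* 0.27 ± 0.082, *2410002F23Rik* 0.16 ± 0.054 and *2410006H16Rik* 0.10 ± 0.050. *Rps3* (0.05 ± 0.035), *Rack1* (0.05 ± 0.033), *Snhg6* (0.04 ± 0.10), *Snx5* (-0.09 ± 0.050) and *Rpl23a* (0.08 ± 0.039) were closer to 0. The differences between these kinds of host were not tested.

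The position in the intron was set beside the difference between genotypes. The limit of 110 nt was chosen after the distances were seen. The 37 members within 110 nt of the downstream exon had a median log2 fold change of 0.32, with 33 above 0. The 20 members farther away had a median of 0.23, with 19 above 0. Every Het library lay above every WT library in 17 of the 37 near members and 5 of the 20 farther ones. Both shares were above the 8.32% of all tested genes. The difference between near and farther members was not tested. Spearman's rho between distance and log2 fold change over 57 members was -0.15, and over all 58 it was 0.25 for length, 0.31 for GC content and 0.10 for level per kb. These are descriptions over genes of the same libraries. The 22 members that lie in an exon of some host transcript, where a read can match both genes, had a median of 0.28 and the 35 with an intron in every transcript 0.32.

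**Figure D4:**
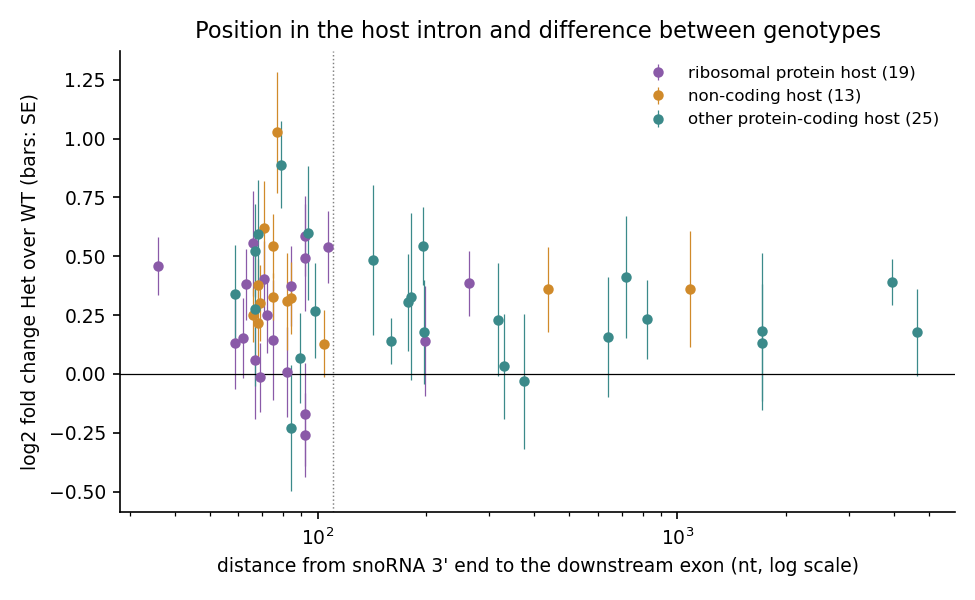
Log2 fold change (Het over WT, bars SE) of 57 box C/D snoRNA genes against the distance from the 3′ end of the snoRNA to the downstream exon in nt on a log scale, coloured by the kind of host; the dotted line marks 110 nt. Values above 0 are found on both sides of the line, in 33 of 37 genes on the left and 19 of 20 on the right.

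The third comparison took the proteins that bind and build box C/D snoRNPs. The 4 core protein genes were slightly higher in Het. *Fbl* was at 174, 177 and 178 CPM in WT and 185, 188 and 185 CPM in Het libraries, a log2 fold change of 0.07 ± 0.035. *Nop56* (0.06 ± 0.034), *Nop58* (0.09 ± 0.042) and *Nhp2l1* (0.07 ± 0.044) were of like size. *Fbl* and *Nop56* had no overlap between groups, whereas *Nop58* and *Nhp2l1* overlapped. None of the 4 passed an unadjusted *P* of 0.05. Of 11 assembly factor genes 8 were higher (median 0.01), of 16 genes for trimming and decay 7 (median -0.03) and of 15 genes of the U3 processome, which cuts the rRNA precursor, 10 (median 0.03). In 6 of these 46 genes (13.0%) every Het library lay above every WT library, against 8.32% of all tested genes. The opposite held in 2 (6.92% of all tested genes). Of the 46 genes, 0 passed the edgeR test or DESeq2's. At an unadjusted *P* under 0.05 edgeR gave 1 higher (4.34% of all genes) and 2 lower (4.09% of all genes), shares near or below those of all genes. These were *Nop14* (0.10 ± 0.041), *Heatr1* (-0.15 ± 0.056) and the exosome gene *Exosc5* (-0.14 ± 0.056).

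**Figure D5:**
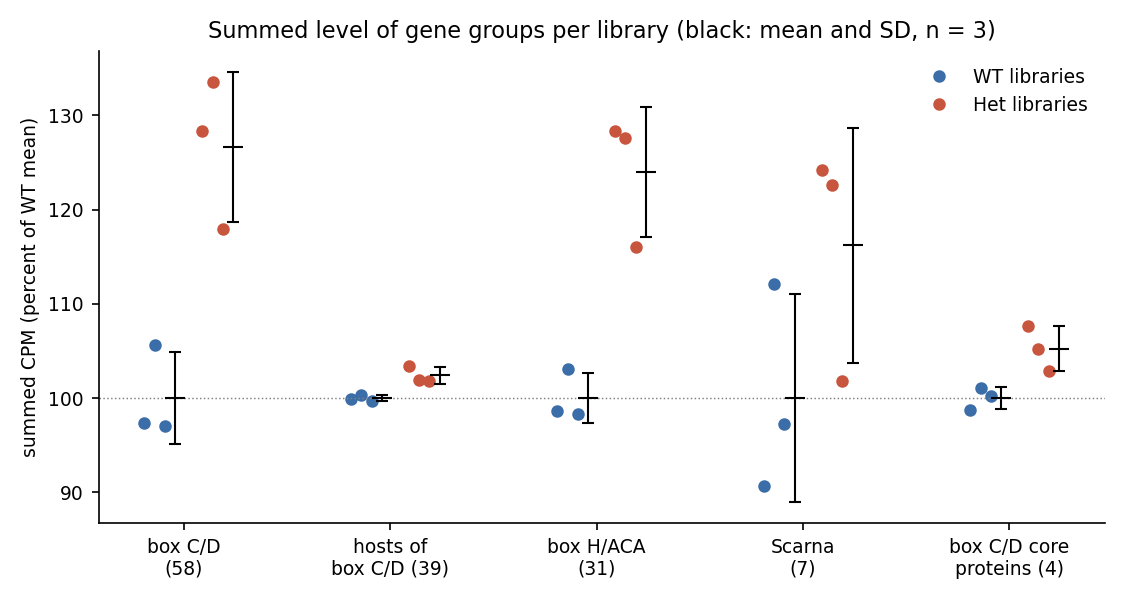
Summed level per library (CPM, as a percentage of the WT mean, axis not starting at 0) of the box C/D snoRNA genes, their hosts, the box H/ACA snoRNA genes, the *Scarna* genes and the 4 box C/D core protein genes, with 1 point per library (blue WT, red Het) and the mean and SD (n = 3) in black. The box C/D and box H/ACA sums of all 3 Het libraries lie above those of all WT libraries, while the *Scarna* sums overlap.

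Box H/ACA snoRNA genes, which guide pseudouridylation of rRNA and are trimmed from introns in a similar way, were measured by the same rule for comparison. Of 31 such genes, 29 had a positive log2 fold change (93.5%, against 50.2% of all tested genes) with a median of 0.34. In 19 of them (61.3%) every Het library lay above every WT library, against 8.32% of all tested genes. At an unadjusted *P* under 0.05 edgeR gave 16 of the 31 higher in Het (51.6%, against 4.34% of all genes) and 0 lower (4.09% of all genes). Their sum was 116, 122 and 116 CPM in WT and 152, 151 and 137 CPM in Het libraries. The difference between both families was not tested.

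The rule leaves the edge of the family at low counts. All 58 members were also kept by the filter of the test, 55 of them had at least 10 counts in all 6 libraries, and none passed through the columns of 1 group alone. The members just inside, *Snord98*, *Snord8* and *Snord88a*, had 8 to 31, 7 to 29 and 13 to 31 counts per library. Just outside were *Snord123*, *Snord23* and *Snord90*, with 2 to 11, 5 to 14 and 2 to 9 counts. Of the 16 rows outside, 7 had few counts and 9 had 0 in every library. Among these were *Snord116* and its copies *Snord116l1* and *Snord116l2*, which belong to an imprinted cluster expressed in brain. *Snord116l1* and *Snord116l2* have the same sequence, and reads of such copies can be lost in mapping. A count of 0 therefore does not show that they are not expressed. *Snord64*, nearby on chromosome 7, is a member. *Snord118* (U8), a snoRNA with a promoter of its own that is needed for maturation of the large-subunit rRNA, had 2, 4 and 1 counts in WT and 7, 9 and 5 in Het libraries.

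Several properties of the libraries were set beside these values. Counted reads ranged from 36378803 to 58946111 in WT and from 42398206 to 74909774 in Het. *Snrpb* itself was at 430, 438 and 414 CPM in WT and 436, 412 and 430 CPM in Het libraries, so the gene count does not check the genotype, and the groups rest on the labels. Genes of short non-coding RNAs, snoRNA and miRNA genes included, took 0.320%, 0.605% and 0.549% of the reads in WT and 0.777%, 0.818% and 0.523% in Het libraries. All 8 head markers were detected, with sums of 402 to 454 CPM in WT and 381 to 422 CPM in Het, and the 5 posterior Hox genes stayed near 0. WT replicate 1 had the highest sums of the 6 visceral endoderm markers (27.9 against 5.98 to 7.70 CPM in the other 5 libraries) and of the 6 erythroid markers (1489 against 875 to 1210 CPM) and the lowest sum of the 6 cardiac markers (12.4 against 32.4 to 131 CPM). Their part in the result was not tested. Without WT replicate 1, 53 of 58 members had a positive log2 fold change, the median was 0.33, and 29 had every Het library above every WT library, where 14.9% of all tested genes did. In pooled heads, more snoRNA per cell, a different make-up of cells and a different yield of short RNA cannot be told apart. Reads of unspliced or retained host introns cannot be told apart from these either. The paper reports increased intron retention in the Het heads, and its part in these values was not tested.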

How the data were processed

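RNA of 6 pools of heads (3 WT, 3 Het) was sequenced by the authors as ribosome-depleted, stranded, paired-end libraries. They mapped them to the mm10 build (STAR), and deposited raw counts per gene symbol, whole numbers without normalization. The paper names HTSeq as the counter, whereas the labels name featureCounts. The strand setting and the treatment of reads with several matches are not given in the sources used here, and column-purified RNA and library size selection can lose RNAs as short as these. No column was left unassigned.

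Genes kept by filterByExpr (15584 of 24421) were fitted by robust quasi-likelihood in edgeR 4.0.16 (R 4.3.3), after TMM scaling, in a two-sided test over all genes without covariates, and Benjamini-Hochberg adjustment at 0.05. The standard error was taken as the absolute log2 fold change over the square root of *F*. DESeq2 (version 1.42.0) on 21083 genes was an alternative, as were other scalings and filters, the replicate number as a block, and leaving out each library. The scripts were tested on simulated data. Positions, hosts and sequences come from Gencode M21 (mm10), which is later than the annotation used for counting. Of the hosts of members, *Rack1* and *Zfas1* were matched through RefSeq synonyms. Named genes were the 10 members with the largest change without overlap, the 8 highest per kb, hosts with 4 or more members, the edges of the rule, and the protein genes. Genes of the same host and *Snord4a* were added after their values were seen. The members and gene lists were chosen with earlier results of these data known. The values of 1 host gene are not reported here.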

Additional observations from a re-analysis of the deposited data

How the results depend on the processing

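The direction held under all 13 alternatives, 6 of which left out 1 library. The number of members above 0 was 53 of 58 with DESeq2, with DESeq2 size factors, with library size alone, with TMM without short RNA genes, without a filter and with the replicate block, and 50 among the members with at least 10 counts in every library. It ranged from 49 to 55 when 1 library was left out. The median log2 fold change lay between 0.30 and 0.32 under the scalings, filters and block, and between 0.24 (without Het replicate 2) and 0.37 (without WT replicate 2) when 1 library was left out. The median of the hosts ranged from 0.05 to 0.09. Members with every Het library above every WT library ranged from 23 to 32 when 1 library was left out, an alternative chosen after seeing the data, and all tested genes from 11.7% to 15.0%. The number of members past the threshold was 0 under every edgeR alternative and 2 with DESeq2, and of the protein genes 0 throughout. Without Het replicate 2 the smallest adjusted *P* of a member rose to 0.879, and without WT replicate 3 to 0.703.

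The replicate block left 53 members above 0, with a median of 0.31 and 0 past the threshold. At an unadjusted *P* under 0.05 it gave 17 members, a count with no share over all genes beside it. The replicate numbers were not treated as pairs in the main fit. The deviations of same-numbered libraries correlated at 0.17, 0.032 and 0.36. WT replicates 1 and 3 correlated best with the Het library of the same number. WT replicate 2 correlated about equally with Het replicates 1 (0.039) and 2 (0.032). Single genes changed sign near 0: *Snord8* ranged from -0.035 (without Het replicate 2) to 0.38 (without WT replicate 1), and *Snrpb* was at 0.0074 with library size alone and ranged from -0.026 (without WT replicate 3) to 0.019 (without Het replicate 2) when 1 library was left out. The cause was not tested. With 3 libraries a group and 7 to 1254 counts per member and library, a member's standard error was 0.19 at the median, against a median difference of 0.31.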

Other observations

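Other short non-coding RNA genes had values of the same sign. The 7 *Scarna* genes, whose RNAs guide modification of spliceosomal snRNAs in Cajal bodies, had a median log2 fold change of 0.36, with 6 above 0. Their sums were 113, 139 and 121 CPM in WT and 154, 152 and 126 CPM in Het libraries, which overlap. Of 106 tested miRNA genes, taken by symbol, 88 were above 0 (83.0%, against 50.2% of all tested genes) with a median of 0.40. In 27 of them (25.5%) every Het library lay above every WT library, against 8.32% of all tested genes. Summed over all 117 miRNA genes past the count rule, tested or not, levels were 151, 153 and 139 CPM in WT. In Het libraries they were 194, 204 and 173 CPM, without overlap.

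The RNAs of 2 ribonucleases held most reads on short RNA genes and varied widely within groups. *Rmrp*, the RNA of RNase MRP, was at 1538, 2487 and 3102 CPM in WT and 3418, 3189 and 2737 CPM in Het libraries, a log2 fold change of 0.39 ± 0.28. *Rpph1*, the RNA of RNase P, was at 1055, 2847 and 1800 CPM in WT and 3497, 3965 and 1760 CPM in Het libraries, a log2 fold change of 0.69 ± 0.51. Both groups overlapped in both genes. Of the 6 genes of box H/ACA proteins, *Nop10* was at 85.4, 87.1 and 87.4 CPM in WT and 103, 99.95 and 96.6 CPM in Het libraries, a log2 fold change of 0.20 ± 0.041 (edgeR adjusted *P* = 0.306, DESeq2 adjusted *P* = 0.0356). The other 5 had log2 fold changes between -0.01 and 0.01.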
